A study of Homo sapiens with 6 samples.

Results

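The 50 genes described here encode the machinery that copies DNA at the replication fork and packs the copies into chromatin. They were chosen by gene symbol, as the replicative polymerases, the clamp and its loaders, RPA, the enzymes of Okazaki fragments, GINS and CDC45, origin firing factors, the origin recognition complex without its largest subunit, fork protection factors and chromatin assembly factors. The MCM helicase subunits and the other licensing factors were left out of them. Each of the 50 symbols matched 1 of the 21493 rows of the tables, and each had a mean of at least 0.5 FPKM, so all 50 were among the 12241 genes tested. Measured was RNA from HaCaT cells, a spontaneously immortalized human keratinocyte line, in 3 WT and 3 *FGFR2* KO cell lines with 1 library per line, all grown with fetal bovine serum and without an added inflammatory mediator. The KO lines had been expanded from single sorted cells after Cas9 editing of exon 7 of *FGFR2*, whereas the study's WT lines were the starting population and clones from it. The study's text on the sequenced HaCaT cells names clonal lines, but the labels do not say whether a WT library holds the uncloned population. Each value thus stands for 1 line. The p-values measure the spread between lines together with that between cultures and libraries, which 1 library per line cannot separate. The values are FPKM (fragments scaled by transcript length and library depth). In this text 3 values of a group stand in the order of replicates 1, 2 and 3, and log2FC is the mean of KO minus the mean of WT on log2(FPKM + 0.5), with its standard error (SE). Most low values were whole multiples of 1 fragment, and the steps between them put the depth at 67700000 to 88000000 fragments, so that 1 fragment on a transcript of 1 kb is worth 0.0114 to 0.0148 FPKM.

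In a dividing cell, origins are licensed in G1 by loading of the MCM helicase and fire in S phase, when CDC45 and GINS join MCM and turn it into an active helicase. DNA polymerase alpha with primase lays down primers, RFC loads the ring-shaped clamp PCNA at the primer ends, and the polymerases delta and epsilon extend the lagging and the leading strand. RPA covers the single strands, FEN1, DNA2 and LIG1 join the Okazaki fragments, and CAF-1 deposits histones behind the fork. Many of these genes are known targets of the E2F transcription factors and are transcribed towards S phase, whereas genes of mitosis peak later in the cycle.

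*FGFR2* (ENSG00000066468), the targeted receptor gene on chromosome 10, was at 21.6, 39.8 and 15.02 across WT and 3.04, 2.26 and 4.31 FPKM across KO lines. Each KO library was thus below each WT library, with a log2FC of -2.73 (SE 0.36) and an adjusted p of 0.261 by limma. Among cell type markers, all 8 keratinocyte genes were expressed and their summed level was 10892 to 17479 FPKM in WT and 14484 to 25860 FPKM in KO libraries. Of 7 fibroblast, 7 melanocyte and 8 immune cell markers 2 each reached a mean of 0.5 FPKM. The fibroblast sum was 7.99 to 33.2 FPKM in WT and 6.92 to 12.6 FPKM in KO libraries, the melanocyte sum 3.06 to 5.59 and 1.24 to 4.86 FPKM, and the immune sum 12.5 to 22.6 and 5.33 to 11.9 FPKM. The pan-leukocyte gene *PTPRC* was at most 0.15 FPKM and the melanocyte factor *SOX10* was at 0 in each library. Of the markers above a mean of 0.5 FPKM, *COL1A1* was at 6.82 to 16.7 FPKM. *DCN* was at 15.5 FPKM in WT replicate 2 and at 0.0268 to 1.66 FPKM in the other libraries. *MITF* was at 0.529 to 4.01, *PMEL* at 0.697 to 2.43 and *CD14* at 0.66 to 1.6 FPKM. Most of the immune sum was *CD68*, a lysosomal gene that other cells also express. Mitochondrial genes took 21.5% to 27.6% of the FPKM of WT lines and 15.8%, 23.7% and 11.9% of that of the KO lines.

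Of the 50 genes, 49 had a higher mean in KO than in WT lines, as had 60.6% of all tested genes, and 1, *POLD4*, had a lower mean. The median log2FC of the 50 was 0.80, against 0.09 for all tested genes. The differences were largest for *CDC45* (1.55), *CHAF1B* (1.46), *GINS2* (1.36), *CLSPN* (1.30) and *DSCC1* (1.29), and 42 of the 50 genes had a log2FC of at least 0.5, as had 13.3% of tested genes. In 42 of the 50 genes the 3 KO values lay above the 3 WT values, and in *POLD4* they lay below them, so 43 of 50 had groups that did not overlap, where this was so for 24.1% of all tested genes (18.3% above and 5.77% below). With median-of-ratios scaling the count was 39 of 50, against 22.9% of all tested genes. The 7 genes with overlapping groups were *POLE3*, *POLE4*, *GINS3*, *DBF4*, *ORC4*, *ORC5* and *CLSPN*.

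With an adjusted p limit of 0.05 and a minimum size of 0.5 for log2FC, no gene passed, neither among the 50 nor elsewhere (0% of 12241 genes; limma on log2(FPKM + 0.5) with Benjamini-Hochberg adjustment). With weights estimated for each library, limma called 1396 genes, 30 of the 50 among them, but 1 library, WT replicate 1, then held 89.7% of the WT weight. The adjusted p of the 50 genes lay between 0.261 and 0.782. Taking instead 0.05 as the limit of the p before adjustment, and the same minimum size, 40 of the 50 genes differed, 39 higher and 1 lower in KO, against 12.5% of all tested genes (10.2% higher and 2.33% lower). With median-of-ratios scaling between libraries, 32 of the 50 were higher and 1 lower at this level, and over all tested genes 1251 higher and 285 lower became 818 and 488. Without KO replicate 3 the count among the 50 was 24, against 5.17% of all tested genes, and without both KO replicate 3 and WT replicate 2 it was 14, against 5.35%. For a single gene, exact two-sided permutation of 3 against 3 libraries gives no p below 0.1, and the 43 genes whose groups did not overlap had this value. In RNA from bulk cultures, a larger share of cells in S phase and more of these transcripts in each cell cannot be told apart.

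**Figure D1:**
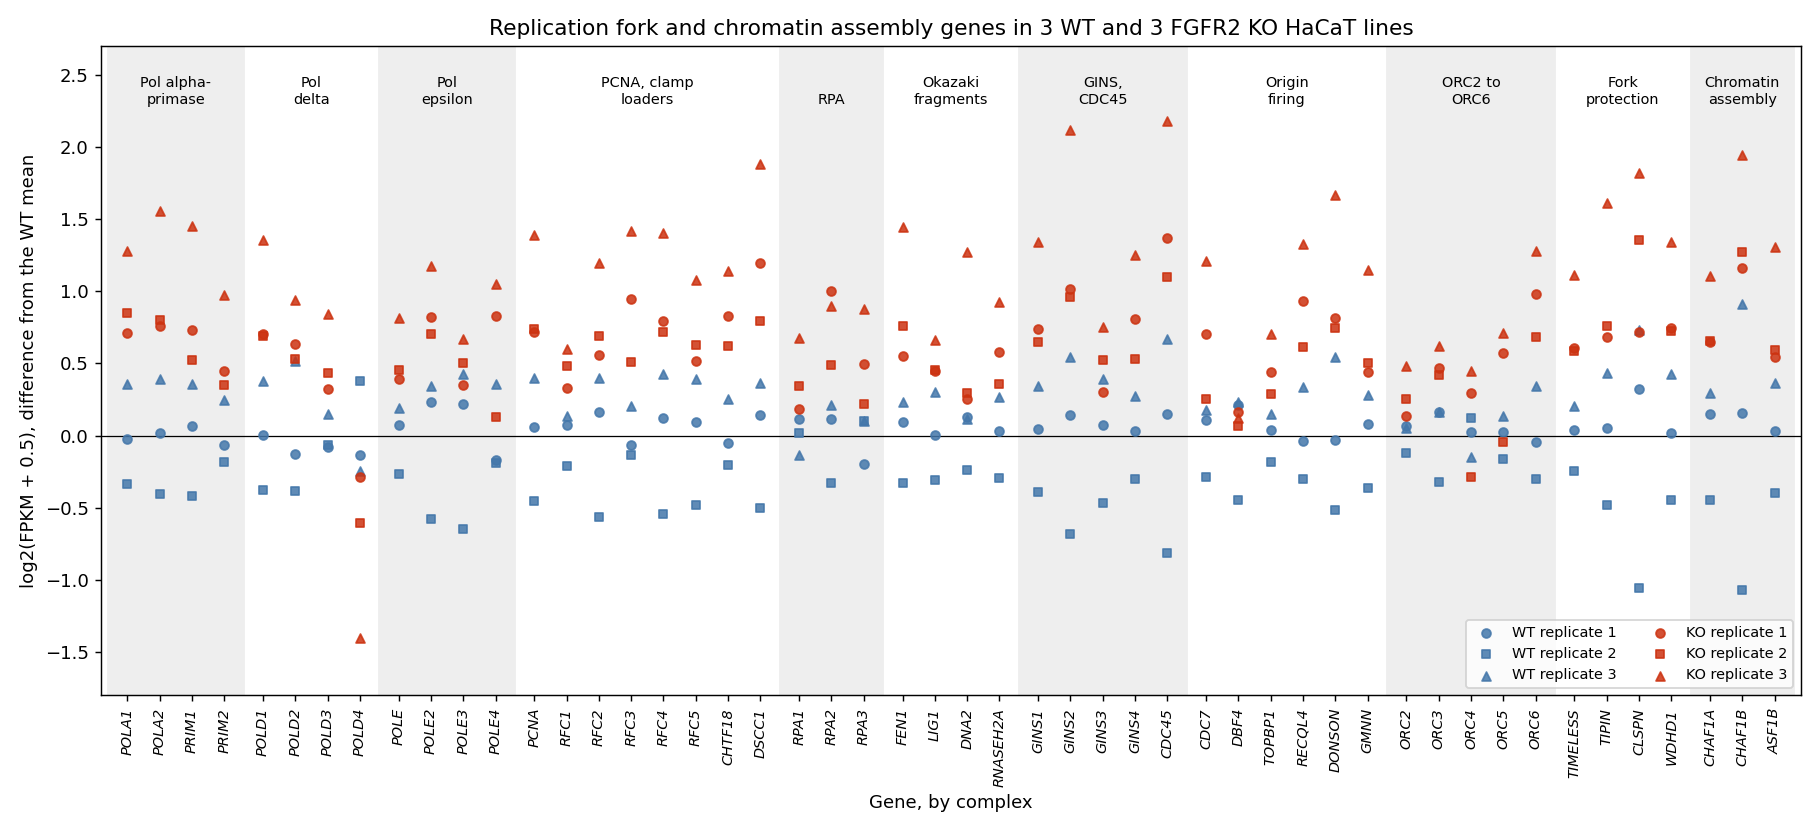
Log2(FPKM + 0.5) of each of the 50 genes (x axis, ordered by complex) as the difference from the mean of the 3 WT libraries (y axis, log2 units); each point is 1 library, blue for WT and red for KO. KO replicate 3 is the highest point in 47 genes and WT replicate 2 the lowest in 45, and *POLD4* is the only gene whose KO points all lie under its WT points.

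The same 2 libraries marked the ends of the range for nearly all of these genes. KO replicate 3 had the highest of the 6 values in 47 of the 50 genes, as in 38.7% of all tested genes, and WT replicate 2 the lowest in 45 of 50, as in 26.1% of all tested genes. Within the WT group, replicate 3 was the highest in 45 of the 50, as in 4855 of all 12241 tested genes. The median difference of the 50 genes from the WT mean was 0.05, -0.33 and 0.32 across WT lines, and 0.64, 0.53 and 1.16 across KO lines. The KO medians thus lay above the WT medians, and the lines of each group also differed among themselves. Without KO replicate 3 the median log2FC was 0.61, and without both extreme libraries 0.41, with 48 of the 50 genes higher in KO. KO replicate 3 was also the library with the smallest mitochondrial share and the lowest fibroblast and immune marker sums, and WT replicate 2 the one with the highest fibroblast, melanocyte and immune marker sums; their part in these values was not tested. When libraries were scaled to the FPKM sum of their nuclear genes, the median log2FC of the 50 was 0.72, with 49 of 50 higher.

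Since members of this group are known to be transcribed together from promoters with E2F sites, their promoters were searched. RefSeq promoter windows (GRCh38.p14, 250 bases before to 50 bases after the annotated start) were found for 42 of the 50 genes, and the first window listed for each was used. They were searched on both strands for 4 forms of the E2F site, which read TTGGCGC or TTCGCGC or TTCCCGC or TTGCCGC. At least 1 form was found in 25 of the 42 windows (59.5%), against 13.1% of all 27305 windows and 21.1% of the 9809 windows of tested genes; 2 or more were found in 8 (19.0%), against 3.29% for tested genes. The letters CCAAT, in either direction, were in 23 of the 42 (54.8%), against 37.2% for tested genes. Of the lists compared below, licensing genes had E2F forms in 7 of 8 windows (87.5%), 6 of them with 2 or more. Other fork genes had them in 7 of 26 (26.9%) and genes of G2 and mitosis in 4 of 18 (22.2%). CCAAT was in 75%, 53.8% and 83.3% of the windows of these lists, in that order. The shares are a description of these windows, and were not tested. Shown are the windows of the 4 genes with the largest log2FC values and that of *POLD4*, the gene with the opposite direction, each 5′ to 3′ in the direction of transcription with E2F letters in capitals.
CDC45, chr22:19479670-19479969, plus strand: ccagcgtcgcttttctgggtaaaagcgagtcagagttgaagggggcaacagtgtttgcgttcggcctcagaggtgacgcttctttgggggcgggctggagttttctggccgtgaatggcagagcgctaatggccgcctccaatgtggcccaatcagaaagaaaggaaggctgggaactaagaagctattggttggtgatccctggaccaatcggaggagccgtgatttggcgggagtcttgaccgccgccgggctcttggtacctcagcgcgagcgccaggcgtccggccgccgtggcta
CHAF1B, chr21:36385142-36385441, plus strand: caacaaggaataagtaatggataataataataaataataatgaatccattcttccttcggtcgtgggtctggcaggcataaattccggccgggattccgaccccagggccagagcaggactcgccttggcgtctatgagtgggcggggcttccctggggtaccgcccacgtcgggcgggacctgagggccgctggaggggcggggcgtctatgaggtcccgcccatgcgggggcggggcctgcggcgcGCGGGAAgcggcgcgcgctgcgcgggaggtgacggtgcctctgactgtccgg
GINS2, chr16:85688905-85689204, minus strand: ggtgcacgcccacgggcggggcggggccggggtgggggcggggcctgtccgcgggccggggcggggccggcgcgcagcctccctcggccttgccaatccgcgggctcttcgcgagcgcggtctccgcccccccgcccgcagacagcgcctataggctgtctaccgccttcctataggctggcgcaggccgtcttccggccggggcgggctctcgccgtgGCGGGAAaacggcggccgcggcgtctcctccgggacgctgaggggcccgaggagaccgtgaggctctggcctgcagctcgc
CLSPN, chr1:35769929-35770228, minus strand: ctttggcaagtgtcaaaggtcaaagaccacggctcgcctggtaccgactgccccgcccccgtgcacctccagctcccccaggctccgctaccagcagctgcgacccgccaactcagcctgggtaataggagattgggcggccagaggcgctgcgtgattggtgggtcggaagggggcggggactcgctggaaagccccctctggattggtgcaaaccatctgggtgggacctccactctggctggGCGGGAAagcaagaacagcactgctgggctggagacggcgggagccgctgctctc
POLD4, chr11:67353547-67353846, minus strand: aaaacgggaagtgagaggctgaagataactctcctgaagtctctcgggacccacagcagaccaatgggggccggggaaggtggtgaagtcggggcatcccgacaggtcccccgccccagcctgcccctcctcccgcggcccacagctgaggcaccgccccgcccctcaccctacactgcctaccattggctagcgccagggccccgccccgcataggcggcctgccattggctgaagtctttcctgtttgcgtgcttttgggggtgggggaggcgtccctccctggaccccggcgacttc
In *CHAF1B*, *GINS2* and *CLSPN* the form TTCCCGC was read on the opposite strand, beginning 2, 31 and 5 bases before the annotated start. The windows of *CDC45* and *POLD4* held 0 of the 4 forms, with 4 and 3 copies of CCAAT. Other forms of the E2F site were not searched, so this does not show that either window lacks one.

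Among the 50 genes, the largest difference was in *CDC45* (ENSG00000093009, chromosome 22 from 19479457 to 19520612), which encodes the subunit that joins MCM and GINS in the active helicase. It was at 19.4, 9.70 and 27.97 across WT and 45.9, 37.9 and 80.8 FPKM across KO lines. The groups did not overlap, and the means were 19.02 ± 9.14 and 54.9 ± 22.8 FPKM (SD, n = 3 each), a ratio of 2.88 and a log2FC of 1.55 (SE 0.41). *GINS2* (ENSG00000131153), 1 of the 4 subunits of GINS, had 15.9, 8.76 and 21.1 across WT and 29.5, 28.3 and 64.02 FPKM across KO lines, with KO replicate 3 far above the other lines. Its log2FC was 1.36 (SE 0.40). The other GINS subunits had smaller differences, with log2FC values of 0.91 for *GINS1* and 0.86 for *GINS4*. The smallest difference among the GINS and CDC45 genes was that of *GINS3*, at 16.2, 10.97 and 20.4 across WT and 19.1, 22.3 and 26.3 FPKM across KO lines. Here WT replicate 3 lay above KO replicate 1, and the log2FC was 0.52 (SE 0.24).

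All 4 subunits of the priming polymerase had KO values above the WT values, as had 18.3% of all tested genes. Their log2FC values lay between 0.59 and 1.04. *POLA2* (ENSG00000014138), the B subunit, was at 20.1, 14.9 and 26.3 across WT and 34.1, 35.1 and 59.6 FPKM across KO lines, and had the largest difference (log2FC 1.04, SE 0.28). *POLA1*, which encodes the catalytic subunit, had means of 16.4 ± 4.05 and 31.9 ± 6.92 FPKM (SD, n = 3 each). Of the primase subunits, *PRIM1* (catalytic) had a log2FC of 0.90 and *PRIM2* (regulatory) of 0.59 (SE 0.21). For *PRIM2* the values were 13.5, 12.3 and 16.8 across WT and 19.4, 18.1 and 28.1 FPKM across KO lines, and WT replicate 3 came close to KO replicate 2.

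The 4 subunits of DNA polymerase delta, which copies the lagging strand, did not share a direction. The catalytic subunit *POLD1* (ENSG00000062822) was at 16.8, 12.8 and 21.99 across WT and 27.7, 27.4 and 43.7 FPKM across KO lines, which did not overlap (log2FC 0.92, SE 0.25). *POLD2*, the scaffold subunit, was the most abundant polymerase transcript, with WT and KO means of 141 ± 47.8 and 224 ± 33.7 FPKM (SD, n = 3 each) and a log2FC of 0.70. *POLD3*, which carries a contact to PCNA, had a log2FC of 0.54. In contrast, *POLD4* (ENSG00000175482, chromosome 11 from 67350772 to 67356972), the smallest and accessory subunit, was at 30.9, 44.1 and 28.6 across WT and 27.6, 22.1 and 12.5 FPKM across KO lines. It had its highest level in WT replicate 2 and its lowest in KO replicate 3, the libraries with the lowest and the highest levels of most of the other genes. The means were 34.5 ± 8.41 and 20.7 ± 7.66 FPKM (SD, n = 3 each), a log2FC of -0.77 (SE 0.30), and the groups were separated by less than 1 FPKM.

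**Figure D2:**
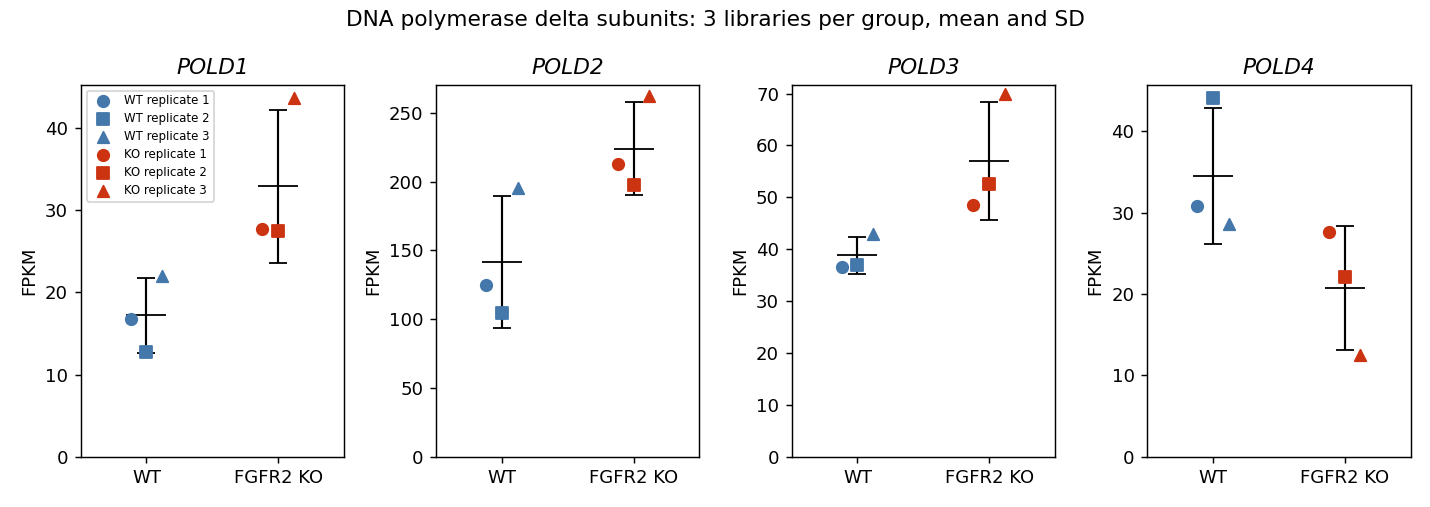
FPKM (y axis, from 0, a separate scale for each gene) of the 4 subunits of DNA polymerase delta in WT and *FGFR2* KO lines; points are single libraries and the bars give the mean and SD of 3. KO libraries lie above WT libraries for *POLD1*, *POLD2* and *POLD3*, and below them for *POLD4*.

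Within each library the ratio of *POLD4* to *POLD1* FPKM was 1.84, 3.45 and 1.30 across WT lines, and 0.998, 0.804 and 0.286 across KO lines. A ratio within a library does not depend on the scaling between libraries. The ratios to *POLD2* and to *POLD3* were also lower in all 3 KO libraries than in any WT library; these ratios were chosen after the values had been seen and are given as a description. The level of *POLD4* is uncertain for another reason. On the same strand, another annotated gene, ENSG00000256514, shares 21.3% of the exon bases of *POLD4*, and was at 4.38, 19.4 and 7.27 FPKM in WT and 9.45, 3.77 and 8.56 FPKM in KO libraries. With the FPKM of both added together the groups overlapped, at 35.2, 63.5 and 35.8 FPKM in WT and 37.1, 25.8 and 21.1 FPKM in KO libraries, a log2 difference of -0.65. The unadjusted p of *POLD4* was above 0.05 without WT replicate 1, WT replicate 2, KO replicate 2 or KO replicate 3, and the log2FC lay between -1.01 and -0.45 (without KO replicate 3) with 1 library left out, and was -0.26 without WT replicate 2 and KO replicate 3.

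The 4 transcripts of polymerase epsilon, which copies the leading strand, had log2FC values between 0.51 and 0.90. *POLE2* (ENSG00000100479), the second largest subunit, had the largest, with 9.84, 5.41 and 10.7 across WT and 15.1, 13.9 and 19.4 FPKM across KO lines (log2FC 0.90, SE 0.27). The catalytic subunit *POLE* had WT and KO means of 29.7 ± 4.77 and 43.8 ± 7.23 FPKM (SD, n = 3 each). The small histone-fold subunits were the ones with overlapping groups. *POLE3* was at 82.9, 45.4 and 95.99 across WT and 91.03, 101 and 113 FPKM across KO lines, where WT replicate 3 exceeded KO replicate 1 (log2FC 0.51, SE 0.27). *POLE4* was at 14.2, 13.99 and 20.6 across WT and 28.8, 17.5 and 33.7 FPKM across KO lines, where KO replicate 2 lay within the WT range.

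The 8 genes of PCNA and its loaders each had KO values above all WT values, as had 18.3% of all tested genes. *PCNA* (ENSG00000132646, chromosome 20 from 5114953 to 5126626), the sliding clamp of the polymerases, had the highest level of the 50 genes. It was at 151, 106 and 192 across WT and 239, 242 and 381 FPKM across KO lines, with means of 149.5 ± 43.1 and 287 ± 80.8 FPKM (SD, n = 3 each). The ratio of the means was 1.92 and the log2FC 0.95 (SE 0.27). The loader subunits shared by all RFC complexes had log2FC values of 0.82 for *RFC2*, 0.96 for *RFC3*, 0.97 for *RFC4* and 0.74 for *RFC5*. *RFC1*, the large subunit that only the PCNA loader of the fork contains, had the smallest difference of the 8, at 39.2, 32.1 and 40.9 across WT and 46.8, 52.2 and 56.5 FPKM across KO lines (log2FC 0.47, SE 0.15). *DSCC1* and *CHTF18* belong to an alternative loader that serves sister chromatid cohesion. *DSCC1* (ENSG00000136982) was at 5.90, 3.61 and 6.96 across WT and 12.8, 9.59 and 20.9 FPKM across KO lines (log2FC 1.29, SE 0.33), and *CHTF18* had means of 33.9 ± 5.69 and 62.1 ± 11.4 FPKM (SD, n = 3 each; log2FC 0.86, SE 0.19).

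RPA coats single-stranded DNA, and its 3 subunits had KO values above all WT values, as had 18.3% of all tested genes. *RPA1*, the large DNA-binding subunit, was abundant at 108, 101 and 90.6 across WT and 113, 126 and 159 FPKM across KO lines, a log2FC of 0.40 (SE 0.16). The WT library with the lowest *RPA1* level was replicate 3, not replicate 2 as for most of the 50 genes. *RPA2* was at 32.2, 23.5 and 34.4 across WT and 60.03, 41.8 and 55.8 FPKM across KO lines (log2FC 0.80, SE 0.20), with its highest value in KO replicate 1, and *RPA3* had a log2FC of 0.53. Of the enzymes that mature lagging-strand fragments, the flap endonuclease gene *FEN1* had the largest difference, with 87.6, 65.2 and 96.3 across WT and 120.2, 139 and 224 FPKM across KO lines (log2FC 0.92, SE 0.26). DNA ligase I, *LIG1*, had 37.7, 30.2 and 46.5 across WT and 51.3, 51.6 and 59.6 FPKM across KO lines, and its log2FC of 0.52 (SE 0.18) was the smallest of the 4. *RNASEH2A*, the catalytic subunit of the RNase that cleaves RNA in DNA, had a log2FC of 0.62. The nuclease and helicase gene *DNA2* had the lowest WT mean of the 50 genes, 5.25 ± 0.799 FPKM against 8.69 ± 3.96 FPKM in KO lines (SD, n = 3 each). In *DNA2* KO replicate 3 stood apart with 13.3 FPKM, whereas KO replicates 1 and 2 had 6.30 and 6.49 FPKM. *DNA2* lies on chromosome 10, whose 463 tested genes had a median of -0.43 relative to all genes in KO replicate 1 and of -0.19 to 0.14 in the other 5 libraries; the part of this shift in the *DNA2* value was not tested.

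Of the complexes, *ORC2* to *ORC6* of the origin recognition complex differed the least, with a median log2FC of 0.42. The largest subunit, *ORC1*, is counted with the licensing genes below and had a log2FC of 1.11 (SE 0.29). *ORC6* (ENSG00000091651), the smallest subunit and only loosely bound to the others in human cells, stood apart from *ORC2* to *ORC5*. It was at 14.1, 11.8 and 18.6 across WT and 29.3, 23.7 and 36.01 FPKM across KO lines (log2FC 0.98, SE 0.22). *ORC4* had 8.47, 9.09 and 7.47 across WT and 10.3, 6.72 and 11.5 FPKM across KO lines, and its lowest level was in KO replicate 2 (log2FC 0.15, SE 0.22). *ORC2*, *ORC3* and *ORC5* had log2FC values of 0.29, 0.50 and 0.42. The ratio of *ORC6* to *ORC4* was 1.67, 1.29 and 2.49 in WT and 2.84, 3.52 and 3.13 in KO libraries; it was chosen after the values had been seen and is given as a description.

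Among the factors that fire origins or control them, *DONSON*, which helps to bring GINS to the helicase, had the largest difference, with 9.22, 6.46 and 13.98 across WT and 16.98, 16.1 and 31.0 FPKM across KO lines (log2FC 1.08, SE 0.33). *RECQL4* and *TOPBP1*, both needed for helicase activation, had log2FC values of 0.96 and 0.48. *GMNN*, the inhibitor of relicensing geminin, had a log2FC of 0.70, with WT and KO means of 22.6 ± 5.04 and 37.3 ± 10.9 FPKM (SD, n = 3 each). The kinase that phosphorylates MCM consists of *CDC7* and its activator *DBF4*, and the transcripts of this pair differed unequally. *CDC7* had means of 5.27 ± 0.948 and 9.28 ± 3.23 FPKM (SD, n = 3 each; log2FC 0.72, SE 0.27). *DBF4* was at 20.8, 13.1 and 21.2 across WT and 20.1, 18.8 and 19.6 FPKM across KO lines, so that the KO values lay inside the WT range. Its log2FC of 0.12 (SE 0.20) was the smallest of the 50 in size, and became -0.10 without WT replicate 2. The ratio of *DBF4* to *CDC7* was 3.68, 3.12 and 3.55 in WT and 2.283, 2.98 and 1.54 in KO libraries, also chosen after the values had been seen and given as a description.

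The fork protection group had the highest median log2FC of the 11 groups, 0.98. Claspin, *CLSPN* (ENSG00000092853), which links a stalled fork to checkpoint kinase CHK1, was at 8.84, 3.08 and 11.9 across WT and 11.8, 18.6 and 25.8 FPKM across KO lines. The log2FC was 1.30 (SE 0.48), the largest SE among the 50, and WT replicate 3 was slightly above KO replicate 1. The partners *TIMELESS* and *TIPIN* travel with the fork as a pair. *TIMELESS* was at 17.6, 14.3 and 19.8 across WT and 26.3, 25.9 and 37.5 FPKM across KO lines (log2FC 0.77, SE 0.20), and *TIPIN* had a log2FC of 1.02. *WDHD1*, which ties polymerase alpha to the helicase, had WT and KO means of 12.3 ± 3.80 and 23.9 ± 6.26 FPKM (SD, n = 3 each; log2FC 0.94).

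Behind the fork, the large subunit of CAF-1, *CHAF1A*, was at 55.01, 36.3 and 60.8 across WT and 78.02, 78.1 and 107 FPKM across KO lines (log2FC 0.80, SE 0.23). *CHAF1B* (ENSG00000159259, chromosome 21 from 36385392 to 36419015), the middle subunit, had lower levels and a larger spread, at 8.46, 3.34 and 14.7 across WT and 17.5, 18.9 and 30.4 FPKM across KO lines. Its log2FC was 1.46 (SE 0.47), with WT replicate 2 the lowest line. The histone chaperone *ASF1B*, which hands H3 and H4 to CAF-1, had means of 51.9 ± 13.5 and 92.3 ± 29.2 FPKM (SD, n = 3 each; log2FC 0.81, SE 0.27).

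**Figure D3:**
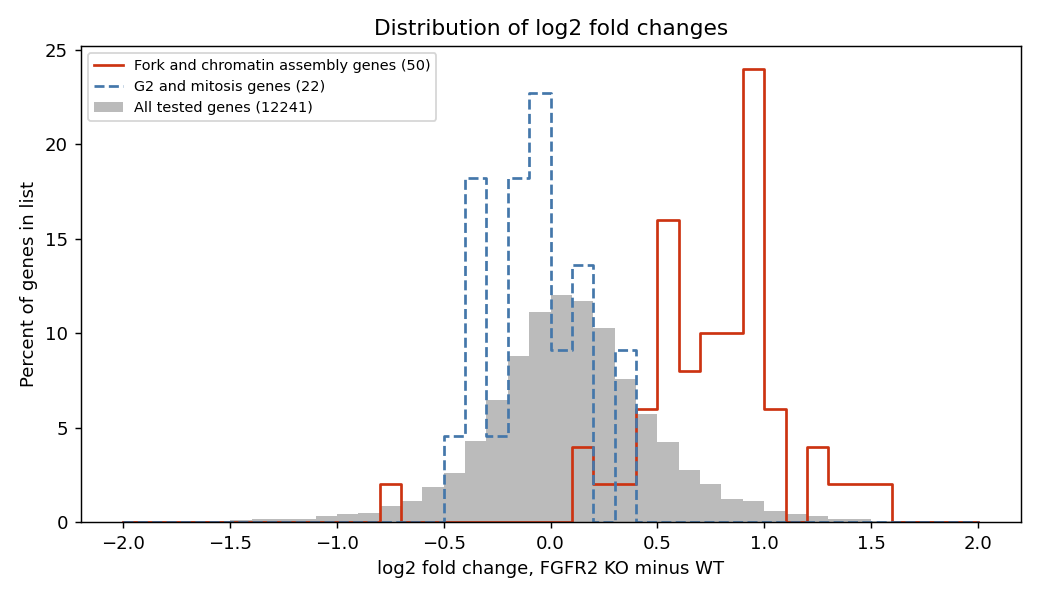
Distribution of the log2FC of KO minus WT (x axis, bins of 0.1) as the percent of the genes of each list (y axis), for all 12241 tested genes (grey bars; 12 genes lie outside the range drawn), the 50 fork and chromatin assembly genes (red line) and 22 genes of G2 and mitosis (blue dashed line). The median is 0.09 for all genes, 0.80 for the fork genes and -0.05 for the genes of mitosis.

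To place these genes in the cell cycle they were set beside other lists from the same libraries. All 10 licensing genes (*MCM2* to *MCM7*, *MCM10*, *CDC6*, *CDT1* and *ORC1*) were higher in KO at the unadjusted level, as were 10.2% of all tested genes. Their median log2FC was 1.10, from 0.81 for the loader *CDT1* to 1.56 for the helicase subunit *MCM6*. Of 30 other genes of the fork, alternative loaders and histone chaperones, 12 were higher and 0 lower at this level, against 10.2% and 2.33% of all tested genes. Their median log2FC was 0.46, from -0.40 for the topoisomerase *TOP2B* to 1.43 for *DTL*, a ubiquitin ligase receptor. Of 22 genes of G2 and mitosis, 0 differed at this level in either direction, against 12.5% of all tested genes. Without the minimum size, 2 of the 22 were within the unadjusted limit, as were 2065 of all 12241 tested genes. These 2 were *AURKB* (KO above WT) and *CENPE* (KO below WT, log2FC -0.38), and their groups did not overlap. Of the 22, 7 had a higher and 15 a lower mean in KO, and the median was -0.05. The extremes were *AURKB*, a kinase of the chromosomal passenger complex (log2FC 0.35, SE 0.14), and *CENPF*, a kinetochore protein (log2FC -0.44, SE 0.22). The proliferation marker *MKI67* was at 144, 88.1 and 132 across WT and 66.4, 125 and 87.95 FPKM across KO lines. *MKI67*, *CDK1* and *KIF11* lie on chromosome 10, whose tested genes had a median of -0.43 relative to all genes in KO replicate 1. The part of this shift in their values was not tested. The groups overlapped in 20 of the 22 mitotic genes, as in 75.9% of all tested genes.

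By library, the medians of the mitotic genes were 0.16, -0.31 and 0.17 across WT lines and -0.03, -0.07 and -0.06 across KO lines. WT replicate 2 was thus the lowest WT library for both lists. It had the lowest WT value in all 22 mitotic genes, as in 4333 of all 12241 tested genes. In the KO libraries the fork genes lay above their WT mean, by 0.53 to 1.16, and the mitotic genes close to it. With median-of-ratios scaling the median log2FC was 0.70 for the fork genes and -0.15 for the mitotic genes, and without WT replicate 2 it was 0.60 and -0.21. The difference between the lists was not tested.

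**Figure D4:**
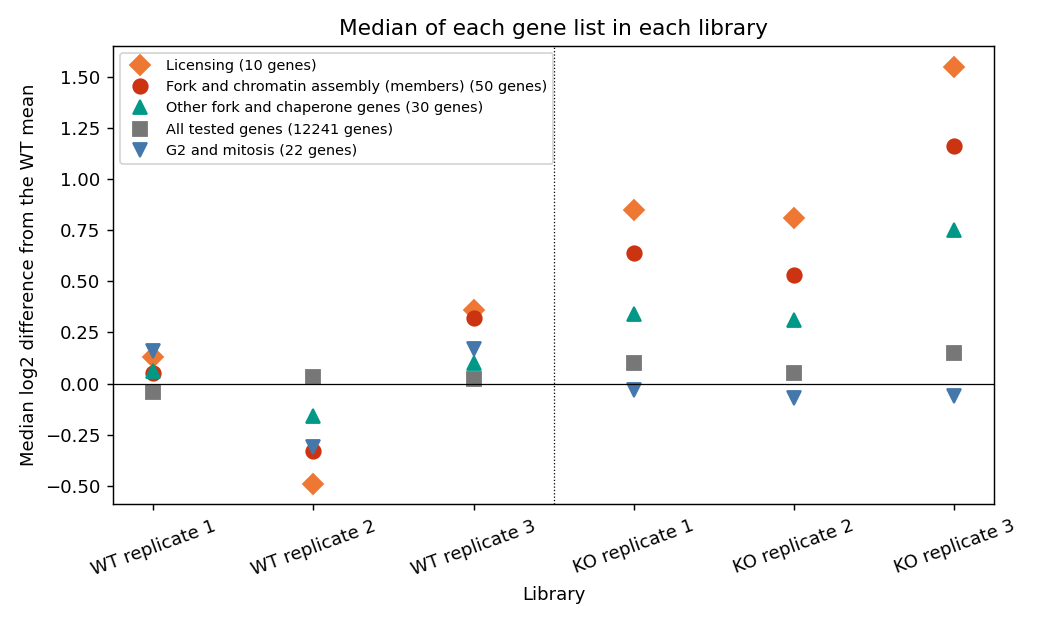
Median log2 difference from the WT mean (y axis) of each gene list in each library (x axis), on log2(FPKM + 0.5). In the 3 KO libraries the licensing genes, the 50 fork and chromatin assembly genes and the other fork genes lie above 0, in that order, while the genes of G2 and mitosis lie between -0.07 and -0.03.

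On the FPKM scale, which is per length, the levels of the 50 genes in WT lines ranged from 5.25 FPKM (*DNA2*) to 149.5 FPKM (*PCNA*), with a median of 19.3 FPKM. After *PCNA* came *POLD2* with 141 FPKM, and their WT values overlapped. *RPA1* with 99.7, *FEN1* with 83.0 and *POLE3* with 74.8 FPKM followed. At the other end, *DNA2*, *CDC7* and *DSCC1* had WT means between 5.25 and 5.49 FPKM that did not differ beyond their spread. Of the subunits that bind in equal numbers, the transcripts of *POLE3* and *POLE4* lay at 74.8 and 16.3 FPKM in WT, and those of *CHAF1A* and *CHAF1B* at 50.7 and 8.82 FPKM. No test was run between different genes. Of the 50 genes, 19 share exon bases with another gene of the tables, 8 of these on the same strand, and in *POLA2*, *RNASEH2A* and *POLD4* the shared part exceeds 15% of the exon bases, so these 3 levels depend on how the reads were divided. For 11 of the 50, *PCNA* and *FEN1* among them, the annotation holds a pseudogene of the same name that the tables do not list.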

How the data were processed

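RNA of 6 HaCaT lines was sequenced from poly(A)-selected, strand-marking libraries, paired-end. The authors deposited FPKM values per gene for each library, after trimming with fastp 0.20.0 and quantification with kallisto 0.46.1 on GRCh38.p13 with GENCODE release 37. How FPKM was derived from the kallisto output, and its strand setting, are not given in the sources used here, and how shared exon bases were divided can change the level of overlapping genes. The authors tested with DESeq2, and those results were not used. Symbols and positions were taken from GENCODE release 44 (GRCh38).

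Of 21493 rows, 18 Y-chromosome copies with values identical to their X copies were left out, and the 12241 genes that averaged 0.5 FPKM or more over the 6 libraries were tested on log2(FPKM + 0.5) with limma 3.58.1 in R 4.3.3, using a mean-variance trend and Benjamini-Hochberg adjustment. A gene was called at an adjusted p up to 0.05 and a log2 difference of 0.5 or more in size. The fold changes understate differences of genes with low values. The steps of low values gave the relative depth. The step of each library was the one that gave the largest share of whole fragments. Only 68.0% of 4300 low values were whole fragments within 0.02 (4.0% by chance for a step fixed beforehand), so no count test was run. Intervals for counting error could therefore not be given. The fit was also run on simulated data with independent noise for each gene and library. Shifts shared by many genes of a library were not simulated, so these runs cannot show how the fit handles them.

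The 50 genes and all gene lists were chosen with earlier results of these data known. Values per library were given for *PCNA* and for the genes with the largest and the smallest difference of each complex and those lower in KO. Values per library of *GINS2*, *POLE4* and *MKI67*, and those of *DNA2* in KO lines, were chosen after the values had been seen. So were the ratios between genes, the *POLD4* promoter and the removal of WT replicate 2 with KO replicate 3. The chromosome 10 medians were not planned in advance. Alternatives were other pseudocounts, filters, scalings and fits, a replicate block, library weights and leaving out each library.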

Additional observations from a re-analysis of the deposited data

How the results depend on the processing

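The direction of the 50 genes depended little on the processing, and the number past a threshold depended on single libraries. Over 19 alternatives and 1 summed value for *POLD4*, 951 values of single genes were computed. Of these, 915 stayed on their side of the adjusted threshold and in their direction. The summed value, 1 of the 915, had no p and was judged by its direction only. Of the others, 33 passed the adjusted p in addition, each with library weights, and 3 turned sign. The 3 were all *DBF4*, at -0.06 with library weights, -0.10 without WT replicate 2 and -0.11 without WT replicate 2 and KO replicate 3 (an alternative chosen after seeing the data); with 1 library left out it ranged from -0.10 to 0.23. With library weights 1396 genes passed the adjusted threshold, and *FGFR2* had a log2 fold change of -2.66 (adjusted p 0.0191 by limma); with 1 library left out it ranged from -3.05 to -2.36. With 1 library left out, genes past the unadjusted threshold numbered 633 (without KO replicate 3) to 2262 (without KO replicate 2), with 961 without WT replicate 1, and 655 without WT replicate 2 and KO replicate 3. Of the 50 genes, 24 to 44 passed it with 1 library left out. The 24 were without KO replicate 3, against 5.17% of all tested genes, and the 44 without WT replicate 3, against 15.9%. Without WT replicate 2 and KO replicate 3 it was 14 of the 50 genes, against 5.35%. The median log2 fold change ranged from 0.60 to 0.95 with 1 library left out, and was 0.41 without both. Groups that did not overlap numbered 39 of the 50 genes with median-of-ratios scaling, 40 with quantile normalization and 40 with scaling to nuclear genes, against 22.9%, 23.3% and 23.3% of all tested genes. Leaving out a library cannot lower this count.

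The labels do not say whether same-numbered WT and KO libraries belong together. Their deviations from the group means correlated at -0.21, 0.22 and 0.05, and not each library correlated best with its own number. With 3 libraries per group such correlations cannot decide whether the samples were paired. With the replicate block 42 of the 50 genes (41 higher and 1 lower) and 1762 of all genes passed the unadjusted threshold and 0 the adjusted one, and *FGFR2* had an adjusted p of 0.0972 by limma.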

Other observations

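Among 30 further genes of the fork, of clamp loading and of histone supply, the largest difference was in *DTL*, the substrate receptor of the ubiquitin ligase that acts on PCNA-bound proteins. It was at 10.1, 4.59 and 12.5 across WT and 18.7, 17.2 and 40.2 FPKM across KO lines, which did not overlap (log2 fold change 1.43, standard error 0.43). The exonuclease gene *EXO1* had a log2 fold change of 1.29, and *TONSL* and *MMS22L*, whose products bind new histones at damaged forks, had 1.08 and 0.82. The H3 and H4 chaperone gene *NASP* had 0.72, and the subunits of the chaperone FACT, *SUPT16H* and *SSRP1*, had 0.67 and 0.44. Of the large subunits of the alternative clamp loaders, *ATAD5*, which unloads PCNA, had 0.71, whereas *RAD17*, which loads the checkpoint clamp, was lower in each KO library, at 15.4, 12.9 and 13.4 across WT and 11.8, 11.8 and 10.7 FPKM across KO lines (log2 fold change -0.27). The checkpoint kinase gene *CHEK1* was at 21.6, 19.6 and 21.3 across WT and 33.3, 27.4 and 46.2 FPKM across KO lines (log2 fold change 0.73). The topoisomerase gene *TOP2A*, expressed into mitosis, had means of 378 ± 46.5 and 375 ± 41.3 FPKM (SD, n = 3 each). None of these genes passed the adjusted threshold by limma (12 of the 30 passed it before adjustment, as did 12.5% of all tested genes). Those named were chosen after their values had been seen, apart from *DTL*.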
